A study of Mus musculus with 27 samples.

Results

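Messenger RNA was compared between E16.5 (E for embryonic day) mouse heart ventricles with 2 copies and with 1 copy of a deletion of the full length of Hand2os1, the long non-coding RNA gene that the labels call Hand2as. The libraries were chosen by their labels alone and are 6 of the 27 samples of the series: 3 from heterozygous ventricles, written F/+, and 3 from homozygous ventricles, written F/F. Both groups were of the C57BL/6 strain and both carry allele F, so the controls also have the deletion on 1 chromosome, and no +/+ library of this stage was analysed here. The labels do not say whether a replicate is 1 embryo or a pool, so the p-values measure the spread between these libraries, which may be technical. Poly(A) RNA was sequenced with a stranded kit, and values are FPKM, a level that corrects the reads of a gene for its length and for the size of the library. The read depth behind them is unknown.

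Hand2 is a basic helix-loop-helix transcription factor that the right ventricle, the endocardium and the epicardium need during heart development. Hand2os1 starts next to Hand2 and runs away from it on the other strand, an arrangement in which a pair of genes can share a promoter region. By late gestation the ventricle wall holds a compact outer layer, an inner trabecular layer, endocardium, coronary vessels, epicardium, fibroblasts and nerve supporting cells, and the circulating red cells are changing from embryonic to adult haemoglobin.

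The stretch between the starts of Hand2os1 and Hand2 is shown because it separates the deleted gene from the coding gene whose level was compared. RefSeq places it at chr8:57320860-57320982 on the + strand of GRCm38.p6, and it is 123 bases long. The capitals mark its only match to CCAAT, searched on both strands, which 22.42% of 27025 RefSeq promoter windows of the same length also hold.
Hand2 to Hand2os1 interval: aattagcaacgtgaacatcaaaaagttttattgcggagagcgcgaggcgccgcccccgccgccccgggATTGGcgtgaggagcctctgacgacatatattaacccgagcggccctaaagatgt

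Hand2os1 was at 0.81, 0.37 and 1.40 FPKM in the 3 F/+ ventricles and listed at 0 in all 3 F/F ventricles. The zeros fall in the libraries labelled F/F, but the transcript was scarce in F/+ as well, and its mean over the 6 libraries was below the 1 FPKM required for a test. Hand2 was at 52.92, 49.37 and 45.99 FPKM in F/+ and at 44.44, 44.21 and 40.29 in F/F. Every F/F value lay below every F/+ value, but the gap between the nearest libraries was narrow. On the log2 scale F/F minus F/+ was -0.20 (SE 0.09; limma p 0.0543 unadjusted, 0.9999 adjusted), so the difference did not pass the test. A two-sided exact permutation test gave p = 0.1, the smallest value that 3 libraries against 3 allow.

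Of the genes flanking the locus, Hmgb2, a chromatin protein of dividing cells, was at 54.90, 59.46 and 52.55 FPKM in F/+ and 70.31, 55.63 and 67.12 in F/F, and the groups overlapped. Its log2 fold change was 0.20. Sap30, a subunit of a histone deacetylase complex, stood at 0.07, Fbxo8 at -0.12 and Hpgd, which inactivates prostaglandins, at -0.21, all with overlapping groups. The small values of Sap30, Fbxo8 and Hpgd each took the other sign under at least 1 alternative fit. Galnt7 and Cep44 had a mean below 1 FPKM, and Scrg1 was listed at 0 in all 6 ventricles.

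**Figure D1:**
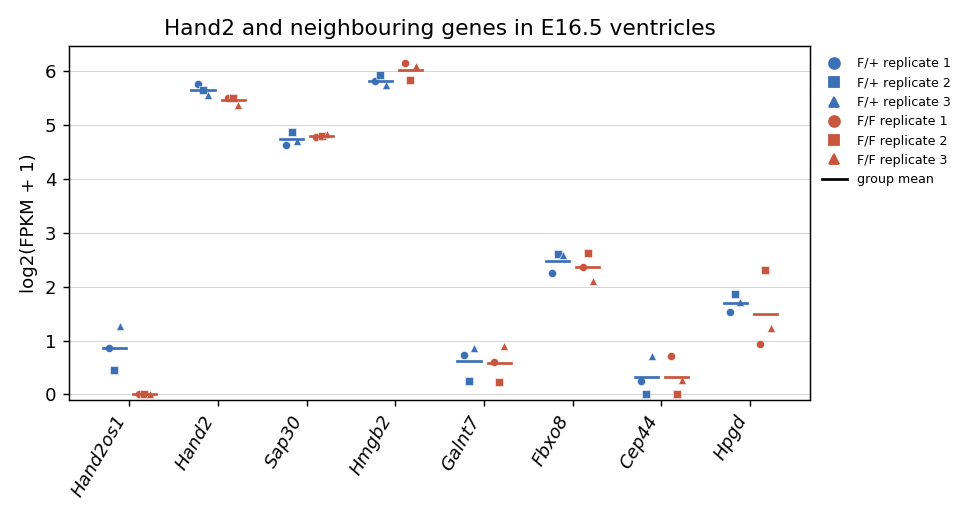
Level of each Hand2 locus gene as log2(FPKM + 1) on the vertical axis, with 1 point per E16.5 ventricle library, F/+ and F/F apart, and a bar at each group's mean. Hand2 sits slightly lower in all 3 F/F libraries and Hand2os1 (LOC102636514) is at 0 there, while the flanking genes overlap.

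The defining markers of ventricle were high in every library. Myl3, a ventricular myosin light chain, lay between 3423.1 and 3912.4 FPKM and Myh7, the fetal ventricular myosin heavy chain, between 3123.6 and 3719.9. Of the 10 atrial markers 9 were detected above a mean of 1 FPKM, and the list summed to 1255 to 1637 FPKM, mostly Myl4, Myl7 and Nppa, which fetal ventricles also express; Sln was listed at 0 in 5 of 6 libraries. The libraries summed to 334194 to 341695 FPKM, had 10494 to 10764 genes at 1 FPKM or more, and correlated with Pearson's r of 0.957 to 0.981 within a genotype and 0.958 to 0.984 between genotypes, over log values of genes within these libraries. The most alike pair crossed the genotypes (F/+ replicate 1 with F/F replicate 3, 0.984). The least alike pair was F/F replicates 2 and 3 (0.957), so the libraries did not group by genotype. The summed Y-linked transcripts reached 1 FPKM in 1 of 3 F/+ libraries and in all 3 F/F libraries, so embryo sex and genotype partly coincide. The part of sex in the results could not be tested. A fit with that split as a covariate compares F/F with F/+ replicate 2 alone. The log2 fold changes also ran with GC content (Spearman's rho of -0.189 across 10276 genes, which are not independent replicates).

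Of the 10699 genes whose mean reached 1 FPKM, 1 had a limma adjusted p under 0.05, which is 0.00935% of those tested. That gene was Mir6236, which was lower in F/F. At an unadjusted p under 0.05 there were 281 genes (2.63%), of which 174 were higher in F/F (1.63%) and 107 lower (1%). The log2 fold change was above 0 for 51.3% of genes. The genotypes did not overlap for 725 genes (6.78%), with 417 higher in F/F (3.9%) and 308 lower (2.88%), and for 433 of the 7068 genes with a mean of 5 FPKM or more (6.13%). Without overlap means only that all 3 values of a group lay to the same side of the other group's, and 232 of the 725 also had an unadjusted p under 0.05.

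Most of these separations were small. The median log2 fold change was 0.26 among the higher genes and -0.22 among the lower ones, against a median absolute value of 0.09 over all genes. An absolute change of at least 0.5 was reached by 86 of the 725, and of at least 1 by 5. The balance between higher and lower genes followed the scaling: 57.5% of the genes without overlap were higher in F/F as deposited, but 48.3% after median-ratio scaling, 45.1% after upper-quartile scaling, 65.7% after rescaling without globin genes and 50.3% after removal of the GC trend. The direction of the majority thus changed with the scaling.

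**Figure D2:**
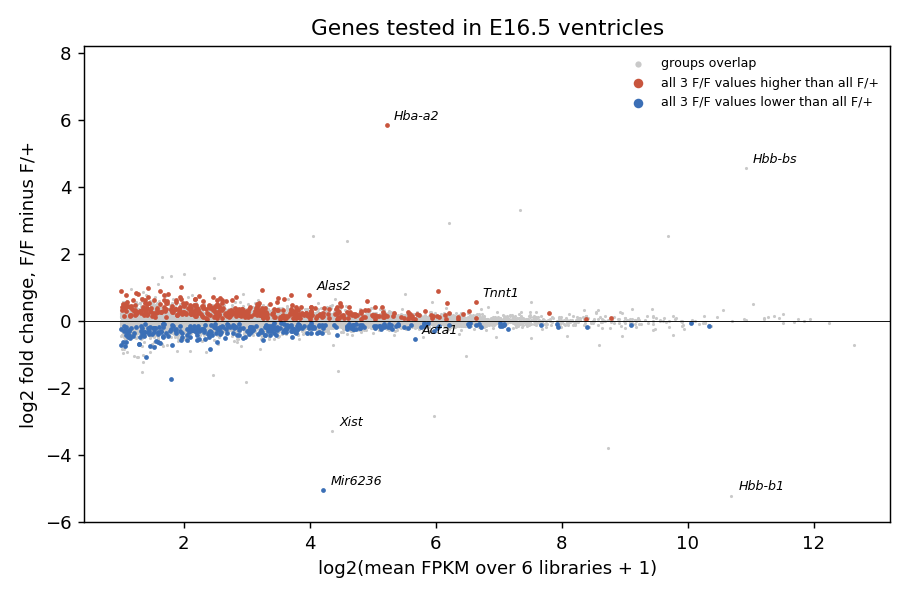
Log2 fold change of F/F against F/+ on the vertical axis and log2(mean FPKM + 1) on the horizontal axis, 1 point per gene tested, with the 725 genes whose genotypes do not overlap in colour. Of the 725 coloured genes 86 reach an absolute value of 0.5, and Mir6236 and Hba-a2 stand apart, while Hbb-bs and Hbb-b1 are far from zero with overlapping genotypes.

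Mir6236 is annotated as a microRNA gene, and its mature sequence is shown because it is the only called gene. RefSeq places it at chr9:110281353-110281371 on the + strand of GRCm38.p6, and the capitals mark its seed, bases 2 to 8.
Mir6236 mature: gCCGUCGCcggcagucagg
The Mir6236 gene was at 17.56, 48.75 and 38.56 FPKM in F/+ and listed at 0 in all 3 F/F libraries (limma adjusted p = 0.00481). A poly(A) library does not measure the mature microRNA, so the value describes reads assigned to the gene's short annotated stretch. The call was lost without F/+ replicate 3 (adjusted p = 0.0645) or without F/F replicate 1 (0.0752), in a range of 3.92e-11 to 0.0752 over all alternatives. Values of 0 beside high values were not unusual among such genes: 14 genes had libraries of the same genotype both at 0 and at 10 FPKM or more, and 11 of them were small RNA genes.

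Red cell transcripts were among the genes higher in all 3 F/F ventricles. Alas2 and Hbb-b2 belonged to the highest log2 fold changes among genes without overlap whose mean reached 5 FPKM, and Slc4a1, with a mean of 4.93 FPKM, came from the red cell list. Alas2, the first enzyme of haem synthesis in red cells, was at 14.36, 8.32 and 9.32 FPKM in F/+ and 26.22, 14.47 and 16.55 in F/F. All 3 F/F values were above the highest F/+ value, the nearest (14.47) by a small margin, and the log2 fold change was 0.77 (SE 0.25, unadjusted limma p 0.016). Hbb-b2, an adult beta globin gene, was at 55.22, 34.40 and 44.39 FPKM in F/+ and 104.41, 77.91 and 69.13 in F/F, a log2 fold change of 0.90. Slc4a1, the anion exchanger of the red cell membrane, was at 4.30, 2.42 and 4.04 FPKM against 7.6, 6.44 and 4.79, a log2 fold change of 0.67. The nearest libraries of Slc4a1 were at 4.30 and 4.79 FPKM, while Hbb-b2 stood further apart. None of these 3 passed the adjusted threshold (limma adjusted p = 0.9999 for each).

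The bases upstream of Alas2 are printed as an example of a red cell promoter among the genes that separated the genotypes. They span chrX:150547297-150547416 on the + strand of GRCm38.p6 in RefSeq, the 120 bases before the start. Capitals mark 1 match to GATAA and 3 adjoining matches to CACCC on either strand, letters that 10.74% and 31.27% of 27025 promoter windows of that length hold. The matches describe the letters only.
Alas2 upstream: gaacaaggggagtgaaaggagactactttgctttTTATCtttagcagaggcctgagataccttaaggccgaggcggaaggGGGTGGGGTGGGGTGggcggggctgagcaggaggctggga

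All globin genes together summed to 2776.1, 2176.8 and 2825.7 FPKM in F/+ and to 8255.3, 7758.3 and 3402.2 in F/F. The F/F sums were all higher, but F/F replicate 3 stood near the controls and the other 2 far above it. As means this was 2592.9 ± 361 against 6472 ± 2670 (SD, n = 3 each), 2.50 times as much. Alpha globin overlapped, at 116, 101 and 276 FPKM in F/+ and 1101, 3361 and 214 in F/F. Hba-a2 was listed at 0 in all 3 F/+ libraries and at 111.18, 88.46 and 17.71 FPKM in F/F, with a limma adjusted p of 0.0652. Alternatives put that p between 7.6e-06 and 0.786, and it passed the threshold with a pseudocount of 0.1 (0.00361), with array weights (0.00293) and without F/F replicate 3.

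Within adult beta globin the libraries divided differently. Hbb-bs made up 6.61%, 0.774% and 3.20% of it in F/+, and 97.5%, 98.2% and 3.37% in F/F. Hbb-b1 ran the other way, at 2399, 2007 and 2414 FPKM in F/+ and 75.85, 0 and 2966 in F/F. Replicates 1 and 2 of F/F thus had nearly all of their beta globin listed under Hbb-bs, and replicate 3 resembled the controls. These genes are near-identical in sequence, so how reads were split among them is uncertain, and what divided the libraries was not tested. No library of E11.5 exceeded a Hbb-bs share of 0.0103%. Of 7 globin genes tested, 2 did not overlap, both higher, and of 6 other red cell genes tested, 2 did not overlap, both higher, beside 3.9% of all genes. Of those 6 genes 2 were negative, and the sum of their list overlapped between the genotypes. Of 18 haem synthesis and iron import genes, 2 did not overlap, both higher and Alas2 among them. In that list 9 genes were negative and the median was -0.008. In bulk samples such as these, more or fewer cells of a type and more or less RNA per cell cannot be told apart.

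**Figure D3:**
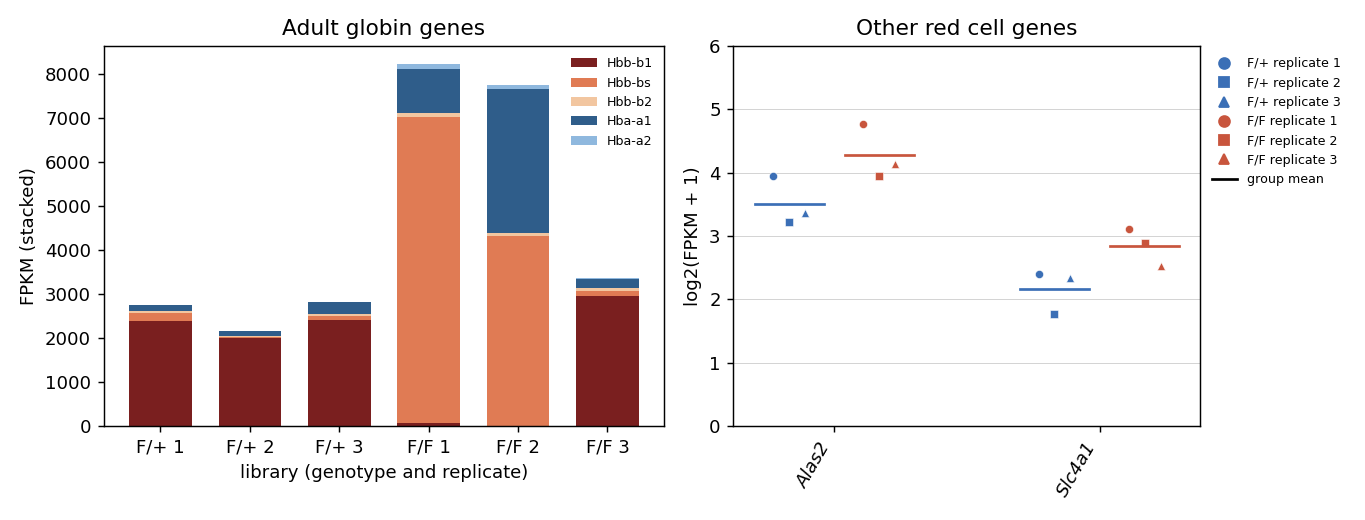
Left, stacked FPKM of the 5 adult globin genes in each library, and right, log2(FPKM + 1) of Alas2 and Slc4a1, with 1 point per library and a bar at each group's mean. F/F replicates 1 and 2 have the highest globin sums, and the other red cell genes differ by less.

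Outside red cells, the highest genes had various roles. Tnnt1, slow skeletal troponin T and a minor troponin T of the fetal heart, was at 65.78, 94.20 and 78.63 FPKM in F/+ and 113.39, 110.07 and 126.46 in F/F. The groups stood well apart, with a log2 fold change of 0.56 (SE 0.13, unadjusted limma p 0.00314). Mdh1, the cytosolic malate dehydrogenase, was at 6.55, 7.78 and 8.26 FPKM against 10.15, 11.86 and 16.96, a log2 fold change of 0.69. Skp1a, a subunit of SCF ubiquitin ligases, was at 3.24, 4.22 and 3.98 FPKM against 6.44, 5.73 and 6.97, a log2 fold change of 0.62. The groups stood apart for these 2 genes, as they did for Zfp277, a zinc finger protein, at 4.07, 4.6 and 4.22 FPKM against 6.89, 8.54 and 6.24 (0.63). Rfc4, which helps load the replication clamp, was at 8.75, 7.76 and 8.17 FPKM against 16.37, 15.83 and 9.37, so its 0.65 rested mainly on 2 libraries. Ssb, the La RNA-binding protein, was higher by 0.76 and Pdss2, of coenzyme Q synthesis, by 0.61. Lsm8, which binds U6 small nuclear RNA, was higher by 0.60, Nrep by 0.58 and the stress transcription factor Atf3 by 0.54, with unadjusted limma p of 0.0611 for Atf3, whose value was 0.259 without F/+ replicate 2.

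Among the genes lower in F/F, Acta1 is a contractile gene. It encodes skeletal alpha-actin, which the fetal heart also makes. Acta1 was at 61.60, 59.24 and 56.31 FPKM in F/+ and 36.38, 36.62 and 48.34 in F/F. The nearest libraries of the 2 groups were at 48.34 and 56.31 FPKM, and the log2 fold change was -0.55 (SE 0.12, unadjusted limma p 0.00206). Cardiac actin, Actc1, overlapped, at 3092.8 to 3517.9 FPKM in F/+ and 2984.6 to 3668.4 in F/F.

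The bases upstream of Acta1 are shown because the gene is a known target of serum response factor, which binds CArG boxes. RefSeq places them at chr8:123894776-123894895 on the - strand of GRCm38.p6, the 120 bases before the start. The capitals mark 1 CArG box match, which 0.7401% of 27025 promoter windows of that length hold.
Acta1 upstream: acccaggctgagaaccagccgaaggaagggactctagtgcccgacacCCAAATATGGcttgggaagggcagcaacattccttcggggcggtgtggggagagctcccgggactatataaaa

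The other low genes had varied roles and modest levels. Thoc7, of the THO complex for mRNA export, was at 7.67, 8.99 and 7.25 FPKM in F/+ and 5.74, 5.58 and 4.66 in F/F, a log2 fold change of -0.50. Nudt7, a peroxisomal coenzyme A hydrolase, was at 25.15, 20.78 and 24.89 FPKM against 19.11, 15.36 and 17.75, a log2 fold change of -0.42. Tmem128, with a log2 fold change of -0.57, and Emc9, a subunit of the membrane protein insertion complex of the endoplasmic reticulum, with -0.48, each had their lowest value in F/F replicate 1 (4.35 and 6.93 FPKM), without which they stood at -0.314 and -0.255. Adck2 stood at -0.49, Ap1s2, of a clathrin adaptor, at -0.47, the lipid kinase Pip5k1b at -0.42, Olfml3 at -0.42, Enoph1, of methionine salvage, at -0.42 and Cmtm8 at -0.42. Sec61b, of the protein translocation channel, stood at -0.42, L3hypdh at -0.41 and Pradc1 at -0.39, or -0.167 without F/+ replicate 1. Of the 30 highest and lowest genes named by this rule, 28 had an unadjusted p under 0.05. With the Y-linked split as a covariate F/F is compared with F/+ replicate 2 alone, so genes without overlap keep their sign by construction. Apart from Mir6236 and Hba-a2, the limma adjusted p of the 30 genes was 0.9999.

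**Figure D4:**
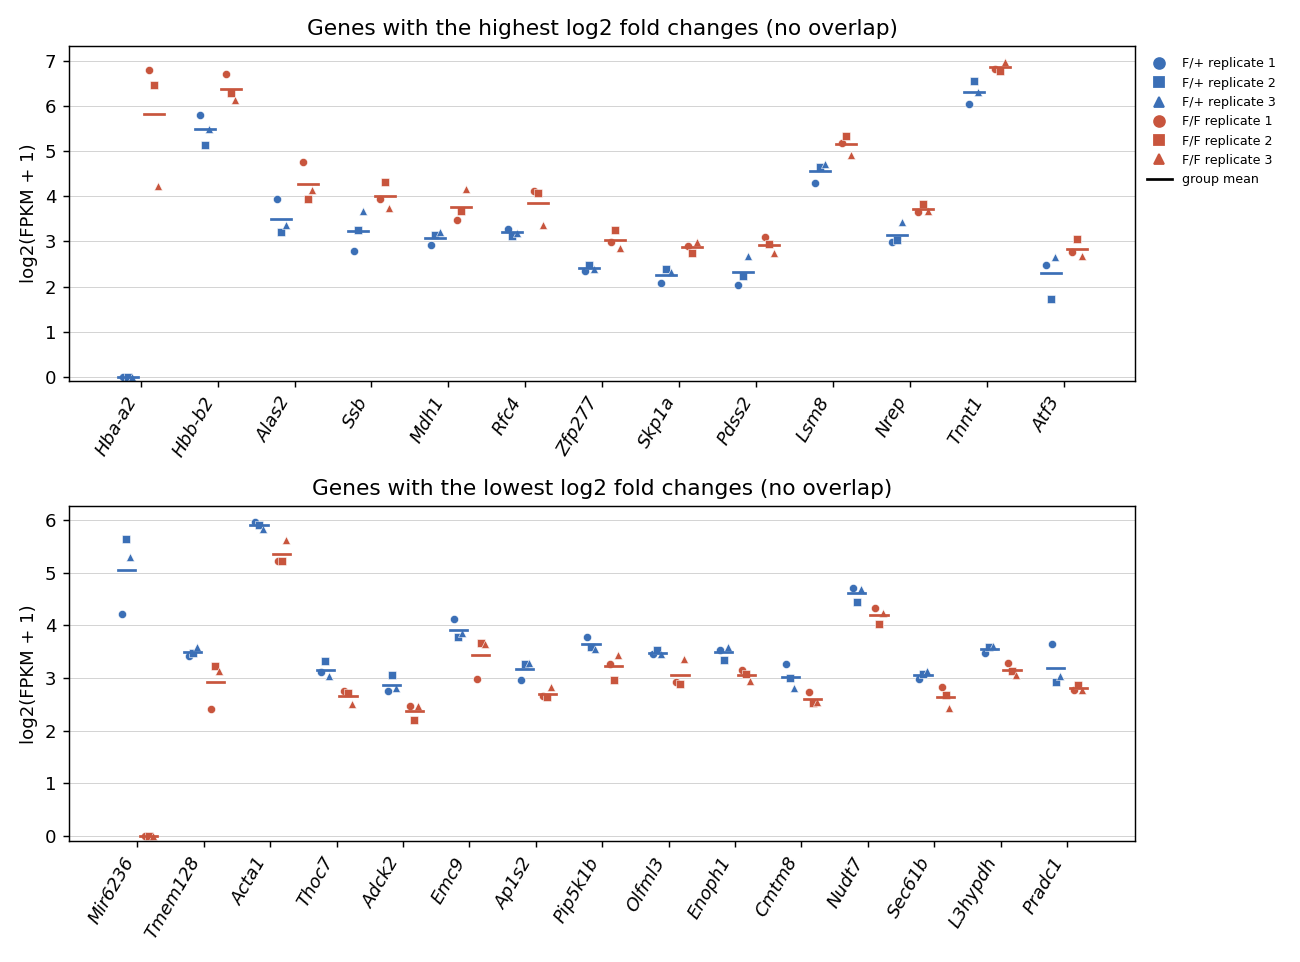
Log2(FPKM + 1) of genes with the highest (top) and lowest (bottom) log2 fold changes among those without overlap and with a mean of at least 5 FPKM, 1 point per library and a bar at each group's mean. Groups are apart for every gene shown by the choice of the genes, and the gaps are narrow for most.

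Few contractile and energy genes of heart muscle separated the genotypes. Of 25 sarcomere genes 1 did not overlap, Acta1, and the median log2 fold change was 0.05, beside 0.00388 over all genes tested. Of 16 calcium handling genes 1 did not overlap: Ryr2, the calcium release channel, at 11.94, 12.55 and 12.35 FPKM in F/+ and 12.67, 13 and 13.69 in F/F, a log2 fold change of 0.09. None of 15 ion channel and connexin genes was without overlap. Of 29 oxidative phosphorylation genes 2 were lower without overlap, both subunits of cytochrome c oxidase. Cox6a1 was at 1397.1, 1327.3 and 1373.7 FPKM against 1185.7, 1225.4 and 1263.2, a log2 fold change of -0.16, and Cox8a stood at -0.07. Cox6a2, the muscle form of the same family, overlapped. Of 26 fatty acid oxidation genes 1 was higher without overlap, the coactivator Ppargc1a at 0.11, and of 21 glycolysis genes 1 was lower, Pfkm at -0.08. None of these 6 shares exceeded 6.9%, beside 6.78% of all genes.

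Transcription factor and layer genes that separated the genotypes did so in both directions. Of 34 cardiac transcription factor genes 5 did not overlap (14.7%, beside 6.78% of all genes). Hand2, Irx5 (-0.26) and Irx4 (-0.16) were lower. Zfpm2 (0.19, or 0.119 without F/F replicate 1) and Hey1 (0.08) were higher. Irx5 was at 8.83, 9.44 and 9.05 FPKM against 8.67, 5.75 and 8.25, and its log2 fold change was -0.0953 without F/F replicate 2. Irx4, a ventricular identity factor, was at 37.73, 35.49 and 36.96 FPKM in F/+ and 31.95, 32.82 and 33.85 in F/F, and its unadjusted limma p was 0.0748. Hey2, another compact layer factor, overlapped at -0.01, as did Nkx2-5 at -0.07. Of 17 compact and trabecular layer genes 3 did not overlap (17.6%). Smpx, a muscle protein linked to stretch, was higher by 0.40 (unadjusted limma p 0.0425). The cell cycle inhibitor Cdkn1c stood at -0.16 and Cited4 at -0.15, or -0.0945 for Cited4 without F/F replicate 3. The natriuretic peptide gene Nppa, typical of trabeculae, ranged from 294.29 to 467.62 FPKM in F/+ and from 350.33 to 455.54 in F/F, without separation. Of 19 stress genes 3 did not overlap (15.8%): Acta1, Atf3 and Rcan1, a target of calcineurin signalling, which was higher by 0.18, or 0.109 without F/+ replicate 3.

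Signalling lists held at most 3 separated members each. Of 24 BMP and TGF-beta genes 3 did not overlap (12.5%, beside 6.78% of all genes): Smad6, the BMP feedback inhibitor, at -0.20, the coreceptor Eng at -0.11 and Tgfbr3 at 0.17. Of 19 Wnt genes 3 did not overlap (15.8%): the secreted inhibitor Frzb was higher by 0.25, while the receptors Fzd2 and Lrp5 stood at -0.18 and -0.17. Of 16 VEGF and angiopoietin genes 2 were lower (12.5%), among them the ligand Vegfb at -0.09. Apln, a peptide ligand of sprouting coronary vessels, was at 11.40, 9.60 and 9.44 FPKM in F/+ and 7.91, 8.55 and 8.87 in F/F, a log2 fold change of -0.24, or -0.157 without F/+ replicate 1. It was the only gene without overlap among 8 coronary vessel genes tested, of which 6 were positive, with a median of 0.18. Of 19 Notch genes 1 did not overlap (5.26%), and of 10 retinoic acid genes none. The median of each signalling list lay between -0.02 and 0.02.

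Among matrix genes, 2 of 38 did not overlap (5.26%, beside 6.78% of all genes), and 21 of the 38 had a negative log2 fold change. Lum, lumican, a proteoglycan that binds collagen fibrils, was at 0.61, 0.67 and 0.76 FPKM in F/+ and 2.66, 1.98 and 1.46 in F/F. All 3 F/F ventricles were above the controls, by a log2 fold change of 0.83 (SE 0.19, unadjusted limma p 0.00276, adjusted p = 0.9999), at a low level. Col3a1 (0.10) was the other gene without overlap, while Col1a1 overlapped at -0.05. Of 24 mitosis genes 5 did not overlap and all 5 were higher, beside 3.9% of all genes. Top2a, the topoisomerase of dividing cells, was at 13.33, 12.33 and 15.14 FPKM in F/+ and 17.91, 19.66 and 16.95 in F/F, a log2 fold change of 0.40 (unadjusted limma p 0.00703). Bub1, of the spindle checkpoint, was at 3.49, 3.11 and 2.75 FPKM against 4.5, 4.48 and 4.84, a log2 fold change of 0.45 (unadjusted limma p 0.00909). Both stood clear of the controls, whereas Mki67 (0.24), Tpx2 (0.21) and Cdca8 (0.15, or 0.0971 without F/+ replicate 2) had unadjusted limma p of 0.0620 or more. Other mitotic genes overlapped, such as Ube2c at -0.13 and Plk1 at 0.06, and the median of the list was 0.05. Of 21 S phase genes 1 did not overlap, the histone chaperone subunit Chaf1b at 0.29 (0.185 without F/+ replicate 2), and Pcna was at 0.01. The red cell genes above were higher in the same libraries, with globin sums of 2176.8 to 2825.7 FPKM in F/+ and 3402.2 to 8255.3 in F/F, and their part in the mitosis values was not tested.

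Response and metabolic lists held 1 or 2 separated genes each, beside 6.78% of all genes. Of 17 hypoxia genes 1 did not overlap (5.88%): Higd1a, a mitochondrial protein induced by low oxygen, was at 18.37, 15.45 and 18.12 FPKM in F/+ and 11.51, 13.74 and 14.39 in F/F, a log2 fold change of -0.37 (unadjusted limma p 0.0152). Of 17 genes of the unfolded protein response, Ddit3 (0.16) and Atf4 (0.10, or 0.0384 without F/+ replicate 1) were higher without overlap (11.8%). Of 15 cholesterol synthesis genes Cyp51 was (6.67%), at 0.28, or 0.156 without F/+ replicate 1, and of 9 interferon genes Bst2 was lower, at -0.19 (11.1%). The imprinted growth genes H19 and Igf2 overlapped, with log2 fold changes of -0.07 and -0.16.

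The genotypes overlapped for most markers of vessel and surface cells. The share of all genes without overlap, 6.78%, is less than 1 gene in lists of this size. None of 11 endothelial genes was without overlap, and Cdh5, the junction cadherin, averaged 99.4 FPKM in F/+ and 98.6 in F/F. Of 7 endocardial genes 2 did not overlap, in opposite directions. Edn1, the endothelin 1 ligand, was at 1.97, 2.55 and 2.18 FPKM against 3.52, 2.71 and 3.14, a log2 fold change of 0.35. Nfatc1 stood at -0.15, or -0.0729 without F/+ replicate 2. Of the 7 endocardial genes 6 were negative, with a median of -0.14. Among 9 epicardial genes Wt1 was lower, at 6.03, 5.84 and 5.59 FPKM against 5.39, 4.82 and 5.32, a log2 fold change of -0.14, while Tcf21 overlapped at 0.01. Wt1 ran against its list, in which 7 of the 9 genes were positive and the median was 0.03. Of 12 fibroblast genes Lum and Col3a1 did not overlap, of 12 smooth muscle and pericyte genes Myh11 (0.34), and of 10 valve genes none. Myh11 also ran against its list, in which 9 of the 12 genes were negative and the median was -0.08.

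Schwann and neural crest genes were lower in F/F as a sum, at 33.72, 34.14 and 35.35 FPKM in F/+ and 28.21, 31.12 and 27.68 in F/F. Most of that sum was Ednrb, so it mainly follows that gene. Of the 10 genes listed 6 had a mean below 1 FPKM and were not tested. Of the 4 tested, 2 did not overlap, both lower, beside 6.78% of all genes (2.88% lower). The median of the 4 was -0.21, and -0.11 with the Y-linked covariate, which leaves F/+ replicate 2 as the only control. Ednrb, the endothelin B receptor, was at 24.00, 24.66 and 26.66 FPKM against 20.49, 23.71 and 19.47, a log2 fold change of -0.24 (unadjusted limma p 0.0487). Erbb3, the neuregulin receptor of Schwann cells, was at 5.14, 4.33 and 4.21 FPKM against 3.50, 3.36 and 3.41, a log2 fold change of -0.33 (unadjusted limma p 0.0343). Among neuron genes Gap43, of growing axons, was higher, at 0.30, and Uchl1 and Ddc were lower in the mean and overlapped. Macrophage genes overlapped: the 5 tested had a median of -0.20, which ranged from -0.509 to -0.0185 when 1 library was left out and was -0.685 with the Y-linked covariate, and their list summed to 51.99, 69.00 and 36.31 FPKM against 43.19, 35.84 and 46.98.

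Lists for tissues that a ventricle dissection could carry gave mixed levels. Lymphocyte genes summed to at most 1.46 FPKM and lung and foregut epithelial genes to at most 0.17 in any library. Thymic epithelium genes summed to 0.57, 0.67 and 0.41 FPKM in F/+ and 0, 0 and 0.07 in F/F, separate but very low, and none was tested. The 12 skeletal muscle genes summed to 2074 to 2687 FPKM, nearly all of it Ckm, the muscle creatine kinase that heart muscle also makes, and Tnni2 was at 7.57 to 11.21 FPKM, while Myod1, Myf5 and Pax7 were listed at 0 in all 6 libraries. A value at or near 0 need not mean absence here, since genes that every cell uses were also low: the glycolytic gene Gapdh was listed at 0.52 to 5.09 FPKM, and Eno1 at 0 in F/F replicates 1 and 2. The sums of atrial, conduction, endothelial, coronary and lymphatic genes overlapped between the genotypes.

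**Figure D5:**
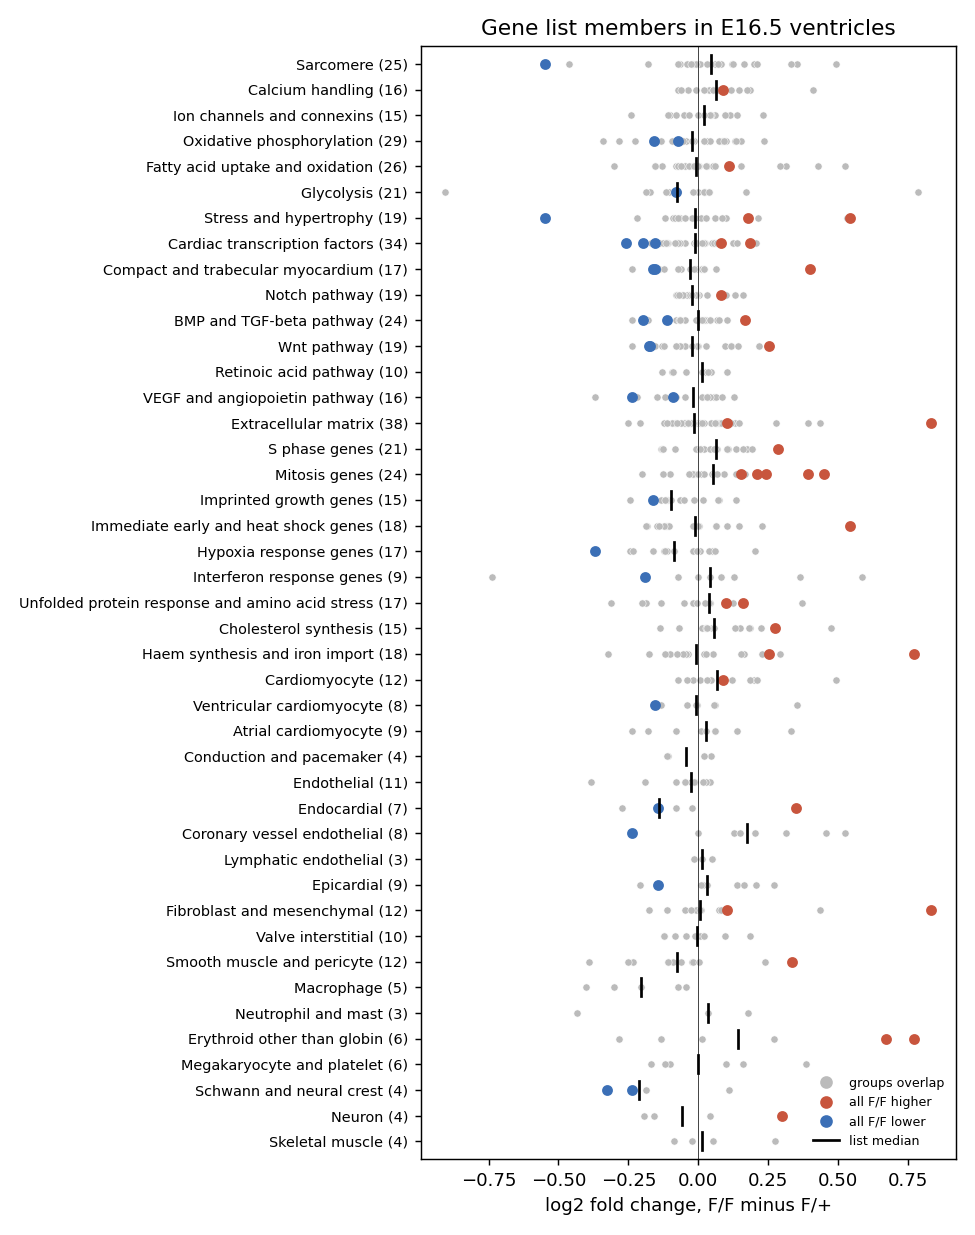
Log2 fold change of F/F against F/+ on the horizontal axis for every tested member of each gene list with at least 3 of them, 1 point per gene, with the list's median marked and genes without overlap in colour. Globin and the Hand2 locus are left out of the plot, and the 5 mitosis genes in colour all lie above zero.

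The same genotypes were also measured in 3 F/+ and 3 F/F whole hearts at E11.5, from other libraries with their own controls. There 1 of 11491 genes passed the limma adjusted threshold (0.0087%), again Mir6236, 502 had an unadjusted p under 0.05 (4.37%, with 2.24% higher in F/F and 2.13% lower), and 1061 did not overlap (9.23%, with 4.93% higher and 4.31% lower). The direction of Mir6236 was opposite: it was listed at 0 in all 3 F/+ hearts and was at 10852, 27597 and 21247 FPKM in F/F. The difference between the stages in its effect had a limma adjusted p of 6.42e-11, the only one under 0.05 among 11423 genes (0.00875%), of which 4.32% had an unadjusted p under 0.05. Stage and dissected tissue changed together and cannot be told apart.

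Of the 725, 700 were tested at E11.5, and 303 had the same sign there (43.3%), beside 48.5% of all genes tested at both stages. Of the 700, 76 did not overlap at E11.5 either (10.9%, beside 9.16% of all genes tested at both stages). Of the 76, 29 had the same direction at both stages, with 12 higher and 17 lower, and 47 had opposite directions. Sec61b was among the lower ones, at 6.94, 7.41 and 7.74 FPKM against 6.08, 5.41 and 4.38 in E16.5 ventricles and at 20.25, 21.40 and 23.44 against 8.32, 8.55 and 7.41 in E11.5 hearts. Its log2 fold changes were -0.42 and -1.32. Olfml3, a secreted matrix protein, was lower at both stages as well (-0.42 and -0.52).

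Other genes differed in sign. Acta1 was at 218.37, 320.44 and 205.80 FPKM in F/+ hearts at E11.5 and 326.84, 336.54 and 360.76 in F/F, a log2 fold change of 0.49, against -0.55 at E16.5. The effects differed by -1.03 (SE 0.23; limma p 6.1e-04 unadjusted, 0.499 adjusted), which did not pass the test. Rfc4 stood at -0.75 at E11.5 against 0.65, and Higd1a at 0.44 against -0.37, with limma adjusted p of 0.988 for each difference. Hand2 stood at 0.03 at E11.5 and -0.20 at E16.5, and the difference of its effects had a limma adjusted p of 0.9991. Alas2 and Hbb-b2, higher in F/F ventricles, stood at -0.02 and 0.03 at E11.5. Tnnt1, Skp1a, Top2a and Bub1 stood at 0.21, -0.26, -0.03 and -0.35.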

How the data were processed

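The authors deposited 1 table of bulk expression per gene and library, whose values are FPKM. No header names the unit, which was inferred from the values, and whole reads could not be recovered. The submitters' processing notes name CASAVA, TopHat2 2.0.11 and the mm9 build, without roles. Identical lines of repeated symbols were merged (270 symbols, 769 of 24525 lines), 1 gene was dropped for an empty cell, and 24025 genes were kept. RefSeq sequences are of GRCm38.p6, another build, and no coordinate of the files was used.

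Values were transformed to log2(FPKM + 1), a scale that understates the change of low genes. Genes whose mean over the 6 libraries reached 1 FPKM were fitted with limma 3.58.1 and an intensity trend in R 4.3.3, and p-values were adjusted by Benjamini-Hochberg over all genes tested. Groups followed the labels. The interaction with stage used the 12 embryonic libraries. On data simulated for the E16.5 comparison (10699 genes, 100 changed per size), 96% of changes of 1 and 100% of changes of 2 on the log2 scale were recovered, with 13 false calls. In the measured libraries 30 of the genes tested had an absolute log2 fold change of at least 1 and 1 was called. The recovery thus describes the simulated data only.

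Named genes were the Hand2 locus, called genes, the 15 highest and 15 lowest log2 fold changes among genes without overlap whose mean reached 5 FPKM (sex-linked genes left out), and, in each list, members without overlap (at most 5) and the 2 most abundant. Nkx2-5, and the marker genes listed at 0, were named outside this rule. Some genes that the rule names are not reported here. The libraries, lists and rules were chosen with earlier results of these data known, so list counts are descriptions. Alternatives were another pseudocount, 2 other filters, 3 scalings, a replicate block, a Y-linked covariate, array weights, all 25 bulk libraries in a single fit, leaving out each library and, chosen after seeing the data, removal of the GC trend. The 2 single-cell libraries were not used here.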

Additional observations from a re-analysis of the deposited data

Results flagged for a closer look

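The effect of genotype on Mir6236 differed between the stages, by a test of the difference itself (limma interaction, adjusted p = 6.42e-11). The gene was at 17.56, 48.75 and 38.56 FPKM in F/+ and listed at 0 in all 3 F/F ventricles at E16.5, and at 0 in all 3 F/+ hearts and 10852 to 27597 FPKM in F/F at E11.5. Of 1069 Mir genes in the table, 12 were above 0 in at least 1 E16.5 library and 4 in all 6.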

How the results depend on the processing

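The number of genes called at E16.5 was 1, and it was 2 with a pseudocount of 0.1 or with array weights, 3 with the Y-linked covariate and 0 to 2 when 1 library was left out (0 without F/+ replicate 3 or F/F replicate 1). The genes added to Mir6236 were Hba-a2 (the pseudocount, array weights and without F/F replicate 3), Mir7045 and Snord35a (the covariate) and Xist (without F/+ replicate 2). The 725 genes without overlap became 433 with a mean of at least 5 FPKM and 1346 to 2570 when 1 library was left out, which smaller groups give by construction. Of the 725, 601 kept their separation after median-ratio scaling, 625 after upper-quartile scaling and 543 after removal of the GC trend. Genes at an unadjusted p under 0.05, 281 as reported, numbered 840 with array weights, 743 without F/F replicate 3, 186 with the Y-linked covariate, 75 in the fit of all 25 bulk libraries, 513 without a filter and 156 with a mean of at least 5 FPKM. The cause was not tested. With the Y-linked covariate the genotype effect rests on a single F/+ library, replicate 2.

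At E11.5 the calls numbered 2 with a replicate block (Crabp2 added) and 1 to 2 when 1 library was left out. For the difference between stages they were 2 with a pseudocount of 0.1, 3 without a filter and 1 to 9 when 1 library was left out, 9 without F/+ replicate 3 of E11.5. Sap30 turned to -0.0695 with the Y-linked covariate and to -0.00214 with array weights, and when 1 library was left out Fbxo8 ranged from -0.249 to 0.00982 (without F/F replicate 3) and Hpgd from -0.612 to 0.0705 (without F/F replicate 1). Of 71 other genes without overlap chosen by the naming rule, 18 moved by over 1.5 times when 1 library was left out. Those whose move is not given above were Ppargc1a (to 0.059), Pfkm (-0.0482), Lrp5 (-0.105) and Col3a1 (0.0625). Hand2 stayed between -0.246 and -0.147 in all 17 alternatives and passed the threshold in none.

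Same-numbered libraries did not deviate together (correlations of -0.081, 0.042 and -0.435), so the values gave no sign that the numbers pair them. Differently numbered libraries ranged from -0.409 to 0.462 (F/+ replicate 1 with F/F replicate 3). With 3 libraries per genotype these correlations cannot exclude a shared litter or preparation. With the replicate number as a block, the E16.5 fit made 1 call, Mir6236, and had 212 genes at an unadjusted p under 0.05. Depth is unknown.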

Other observations

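Among genes outside the lists, chosen after their values were seen, several were without overlap in the same direction at both embryonic stages. Cox6c, a subunit of cytochrome c oxidase, stood at 0.52 in E16.5 ventricles and 0.41 in E11.5 hearts on the log2 scale. Ube2e2, a ubiquitin-conjugating enzyme, stood at -0.36 and -0.42, and Rasl12 at -0.28 and -1.39. None of the 3 passed the limma adjusted threshold at either stage.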
